A study of Solanum lycopersicum with 14 samples.

Results

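The step from 28 to 35 days after flowering (DAF) was examined in tomato fruit of Ailsa Craig (AC) and of the line HG6-61, from 4 of the 14 RNA-seq libraries of the series. The libraries at 35 DAF were set against those at 28 DAF within each cultivar, so that genes whose transcripts changed alike in the pair of cultivars on the same calendar interval could be told from genes that changed in AC. The groups were AC fruit at 35 DAF, HG6-61 fruit at 35 DAF, AC fruit at 28 DAF and HG6-61 fruit at 28 DAF, from plants of one greenhouse with no treatment given in the labels. The sample labels call every stage up to 35 DAF mature green, whereas the protocol text ties that term to 35 DAF, so whether the 28 DAF fruit were mature green is unclear. The study describes AC as an early and HG6-61 as a late maturing line. According to its methods, pericarp of fruit from several plants was mixed for each library, so a library is 1 pooled sample with no replicate of its stage and cultivar. The deposited counts of reads per gene summed to 4277327 in AC and 1461817 in HG6-61 at 35 DAF, against 4221600 and 3927801 at 28 DAF. The HG6-61 library at 35 DAF was the smallest of all 14. Its low depth limits what can be seen in that cultivar, since a gene with 0 reads there could still lie at up to 2.16 CPM (reads per 1e6 counted reads, with library totals adjusted by TMM factors). That limit is the level of 3 reads, and it lay at 0.85 CPM in AC at 35 DAF.

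Tomato is a climacteric fruit. At the start of ripening, MADS-box and NAC transcription factors such as RIN and NOR act together with a burst of ethylene, made from S-adenosylmethionine by ACC synthase (ACS) and ACC oxidase (ACO), and switch on genes for carotenoid synthesis, wall softening and aroma. Chlorophyll is broken down at the same time, and seed filling comes to an end inside the fruit. Genes are named here by their SL2.40 identifier, by a tomato name where a RefSeq gene of that name lies on the same chromosome or the study's tables pair the name with it, and otherwise by the closest Arabidopsis symbol in the deposited table.

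Of the 26397 genes in the count table, 15757 had at least 10 reads in 1 or more of the 2 libraries of each cultivar and were judged in both. Levels at 35 DAF were more than 4-fold higher than at 28 DAF for 714 genes in AC (4.2% of those judged) and 539 genes in HG6-61 (3.26%). They were more than 4-fold lower for 1625 genes in AC (9.55%) and 1106 genes in HG6-61 (6.69%). A gene was classed as changed alike if it passed 4-fold in one cultivar and 2-fold the same way in the other, and as changed in AC alone if it passed 4-fold in AC and stayed within 2-fold, or at 3 reads or fewer at each stage, in HG6-61. By these limits 377 genes were higher alike (2.39%) and 1059 were lower alike (6.72%). In AC alone 302 genes were higher (1.87%) and 615 were lower (3.8%), against 201 (1.26%) and 312 (1.95%) in HG6-61 alone. Among the 2969 genes that passed 2-fold in each cultivar, 2699 moved the same way, 110 were higher in AC and lower in HG6-61, and 160 were lower in AC and higher in HG6-61. These classes rest on 1 library per stage and cultivar and carry no test.

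**Figure D1:**
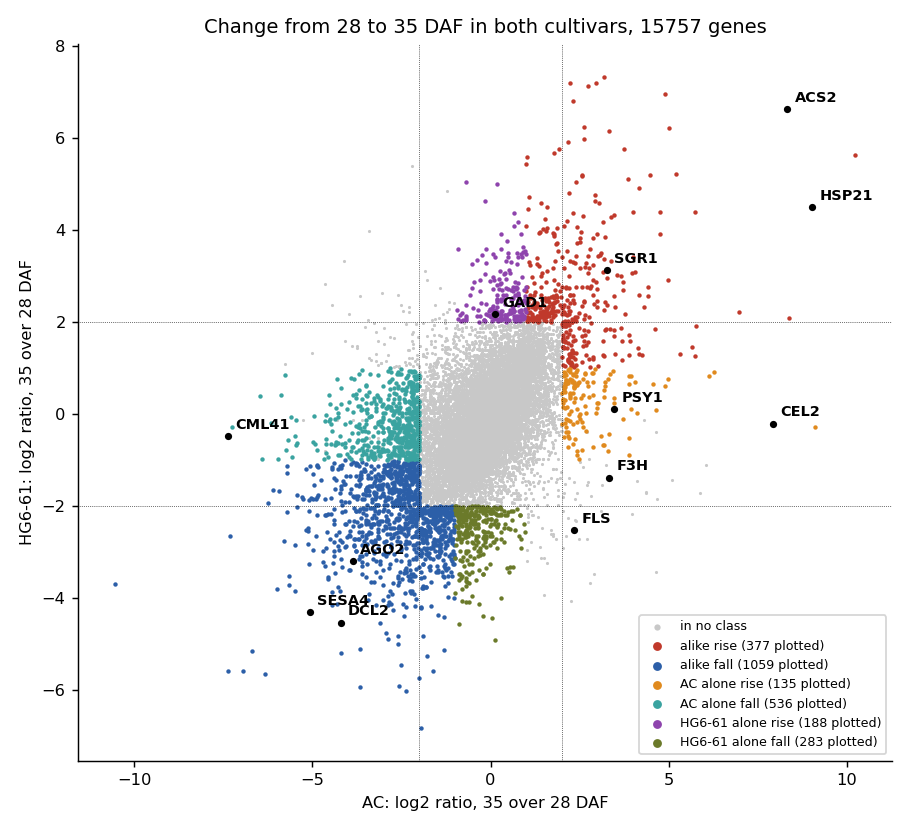
Log2 ratio of 35 over 28 DAF in AC (horizontal axis) and HG6-61 (vertical axis) for the 15757 genes judged in both cultivars, from TMM-scaled counts with 1 library per point of each ratio. Colours mark the classes and dotted lines the 4-fold limits; the upper right and lower left hold the 377 and 1059 genes that changed alike, and genes of an alone class with too few reads in the other cultivar are not plotted.

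With the cultivars as replicates of a stage, edgeR's quasi-likelihood test with stage and cultivar in the model, run over all 14 libraries, tested 18082 genes. No gene was higher and 4 were lower at 35 DAF at an adjusted p under 0.01 and a change beyond 4-fold (0% and 0.0221% of those tested), while 5021 genes had an unadjusted p under 0.05 and DESeq2 called 180 higher and 260 lower at the same limits. Without AC at 35 DAF the counts were 4 higher and 1 lower, without AC at 28 DAF 0 and 1, without HG6-61 at 35 DAF 67 and 27, and without HG6-61 at 28 DAF 0 and 3. At an adjusted p under 0.05 with no fold limit, edgeR called 591 genes higher (3.27%) and 863 lower (4.77%). These counts were 130 and 74 without AC at 35 DAF, 18 and 70 without AC at 28 DAF, 515 and 520 without HG6-61 at 35 DAF, and 0 and 15 without HG6-61 at 28 DAF. Without that last library every gene named below lost an adjusted p under 0.05 except the 4 that passed the stricter limits. A separate term for the difference between the cultivars, with the spread taken from the other 5 stages, called 2 of 19182 genes at an adjusted p under 0.05, both with the AC change above that of HG6-61 (0.0104%). No gene was called with the AC change below, while 622 had an unadjusted p under 0.05 in that direction and DESeq2 called 21. Since the cultivars stand in for replicates, a stage p-value sets the mean change against the spread between the cultivars over the 14 libraries. It does not measure how alike the cultivars moved at this step, and a gene that changed in AC alone can pass. Each fit uses the same 4 libraries, so the classes and tests are not independent of each other.

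Several properties of the libraries moved with the stage. The median change over the 15757 genes was -0.15 on the log2 scale in each cultivar after TMM scaling, and -0.47 in AC and -0.33 in HG6-61 with library totals alone. Short genes were higher relative to long genes: among the shortest of 5 equal groups by deposited gene length the median was 0.06 in AC and 0.37 in HG6-61, and among the longest -0.38 and -0.54. With each change taken relative to genes of like length, 364 genes were higher and 922 lower alike, and 326 were higher and 555 lower in AC alone. Transcripts of the fruit identity genes TAGL1 and FUL2 were present in all 4 libraries. The 16 seed genes listed as markers of another tissue summed to 4797 CPM at 35 DAF and 25566 CPM at 28 DAF in AC, and to 6546 and 18873 CPM in HG6-61, with 14 to 16 of them detected per library and most of the sum from 4 CRU1 homologues (cruciferins, storage globulins). Seed transcripts were thus present in material described as pericarp, and their sum was lower at 35 DAF in each cultivar. Fewer cells of a type and less RNA per cell cannot be told apart in such whole-tissue libraries. The part of seed RNA in the other changes was not tested.

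The 4 genes that passed the test were lower to nearly the same extent in the cultivars, and 2 of them belong to RNA silencing. Since the test sets the change against the spread between the cultivars, this likeness is in part set by the selection. DCL2 is a Dicer that cuts viral and other double-stranded RNA into small RNAs in Arabidopsis, and AGO2 is an Argonaute that carries such small RNAs. The DCL2 homologue Solyc11g008530.1 on chromosome 11 was at 3.97 CPM at 35 DAF and 73.4 CPM at 28 DAF in AC, and 7.91 and 184 CPM at the same stages in HG6-61. Its log2 change was -4.21 (counting interval -5.10 to -3.44) in AC and -4.54 (counting interval -5.55 to -3.69) in HG6-61, and -4.35 ± 0.34 (SE) over both (edgeR adjusted p = 0.000802). The AGO2 homologue Solyc02g069260.2 on chromosome 2 was at 6.23 CPM at 35 DAF and 91.3 CPM at 28 DAF in AC, and 11.5 and 106 CPM at the same stages in HG6-61, with a log2 change of -3.54 ± 0.39 (edgeR adjusted p = 0.0071). In each gene the 35 DAF libraries lay below both 28 DAF libraries. The zinc-finger gene ZFAR1 (Solyc05g052570.2, chromosome 5), a stress-responsive gene in Arabidopsis, was at 54.4 CPM at 35 DAF and 536 CPM at 28 DAF in AC, and 48.2 and 429 CPM at the same stages in HG6-61, a log2 change of -3.23 ± 0.35 (edgeR adjusted p = 0.0071). It was the most abundant of the 4, and its change differed by -0.14 ± 0.68 between the cultivars (AC minus HG6-61). The homologue of AT3G63380 (Solyc09g082870.1, chromosome 9) had 5 against 134 reads in AC and 4 against 216 reads in HG6-61, a log2 change of -4.28 ± 0.43 (edgeR adjusted p = 0.00617). The counting intervals, here and below at 95%, are Clopper-Pearson intervals of the 2 read counts and cover counting error only. The 4 genes did not pass when the 4 libraries were fitted alone, or when cultivar was left out of the model.

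Other genes of RNA silencing were taken from a list of Arabidopsis symbols drawn up after the values were seen, so their counts are a description. In all, 10 of 32 judged members were at least 2-fold lower in AC and 12 of 33 in HG6-61, against 24% and 22.2% of all judged genes. At least 2-fold higher were 5 and 8, against 14.5% and 14%, so in HG6-61 the share higher was above that of all genes too. The median log2 change was -0.51 and -0.94 against -0.14 and -0.18. A second DCL2 homologue next to the first, Solyc11g008540.1, was at 7.37 against 152 CPM in AC and 23.7 against 261 CPM in HG6-61 (35 against 28 DAF), with a log2 change of -3.87 ± 0.61 (edgeR adjusted p = 0.0161). The 2 DCL2 genes are neighbours by number, and since reads that mapped to several places were removed, their separate counts are uncertain. AGO5 (Solyc06g074730.2) was at 2.83 against 17 CPM in AC and 3.6 against 47.2 CPM in HG6-61 (edgeR adjusted p = 0.0183). NRPE1 (Solyc01g096390.2), which encodes the largest subunit of RNA polymerase V in Arabidopsis, was at 39.7 against 101 CPM in AC and 46.7 against 165 CPM in HG6-61 (edgeR adjusted p = 0.0261). The DCL4 homologue Solyc07g005030.2 was lower by less, at 30.9 against 50.1 CPM in AC and 36.7 against 70.4 CPM in HG6-61 (edgeR adjusted p = 0.0664). The list also holds small polymerase subunits, and 4 of them were higher at an adjusted p under 0.05, among them NRPE10 (Solyc06g083360.2) at 41.1 against 14 CPM in AC and 51.8 against 10.9 CPM in HG6-61 (edgeR adjusted p = 0.0285). Over the whole list, the summed level was 1831 against 2258 CPM in AC and 1791 against 2852 CPM in HG6-61. At an adjusted p under 0.05, 6 of 33 tested members were lower and 4 higher, against 4.77% and 3.27% of all tested genes. The 6 were both DCL2 homologues, AGO2, AGO5, NRPE1 and an AGO1 homologue (Solyc03g098280.2). With 1 library left out, 2 (AC at 35 DAF), 4 (AC at 28 DAF), 5 (HG6-61 at 35 DAF) and 2 (HG6-61 at 28 DAF) were lower, and 0, 0, 1 and 0 were higher.

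Small heat shock proteins had high levels in each cultivar at 35 DAF. They are chaperones that hold unfolded proteins in solution and that plants make in heat and at certain stages of development. The 24 homologues, gathered after the values were seen by their closest Arabidopsis gene, summed to 47993 CPM at 35 DAF against 4002 CPM at 28 DAF in AC, and to 14954 against 1084 CPM in HG6-61. In all, 20 of 22 judged members were at least 2-fold higher in AC and 20 of 21 in HG6-61, against 14.5% and 14% of all judged genes, and no member was 2-fold lower in either. By class, 17 members were higher alike. At an adjusted p under 0.05, 11 of 22 tested members were higher over both cultivars, against 3.27% of all tested genes; the count was 5 without AC at 35 DAF, 1 without AC at 28 DAF, 12 without HG6-61 at 35 DAF and 0 without HG6-61 at 28 DAF. The median log2 change was 2.75 in AC and 2.57 in HG6-61.

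The endoplasmic reticulum form ATHSP22.0 had strong members on chromosomes 3 and 11. Solyc03g113930.1 was at 3316 CPM at 35 DAF and 102 CPM at 28 DAF in AC, and 1175 and 15.7 CPM at the same stages in HG6-61, a log2 change of 5.43 ± 0.84 (edgeR adjusted p = 0.0147). Solyc11g020330.1 was at 7632 CPM at 35 DAF and 346 CPM at 28 DAF in AC, and 2826 and 76.8 CPM at the same stages in HG6-61, a log2 change of 4.84 ± 0.70 (edgeR adjusted p = 0.0147). For these genes the HG6-61 ratio was the larger, with a difference of -1.20 ± 1.23 and -0.73 ± 1.18 (AC minus HG6-61), within its error. The cytosolic class is found in a cluster on chromosome 6, where Solyc06g076520.1 was at 11536 CPM at 35 DAF and 1051 CPM at 28 DAF in AC, and 6214 and 307 CPM at the same stages in HG6-61 (edgeR adjusted p = 0.0199) and Solyc06g076560.1 at 4516 against 253 CPM in AC and 1352 against 44.6 CPM in HG6-61 (edgeR adjusted p = 0.0218). Solyc06g076520.1 had the highest level of the list in every one of the 4 libraries. The cluster members are neighbours by number, and reads that fit several of them were removed, so their separate levels are uncertain.

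HSP21, the chloroplast form, was the member with the largest change in AC. Solyc03g082420.2 was at 5403 CPM at 35 DAF and 10.4 CPM at 28 DAF in AC, and 135 and 5.93 CPM at the same stages in HG6-61. Its log2 change was 9.03 (counting interval 8.61 to 9.48) in AC and 4.51 (counting interval 3.90 to 5.18) in HG6-61, so that it was higher alike by class, with a difference of 4.53 ± 0.77 (unadjusted p = 9.89e-05, edgeR adjusted p = 0.172). A second HSP21 homologue, Solyc05g014280.2, was at 658 against 5.29 CPM in AC and 16.5 against 3.56 CPM in HG6-61. Its difference was 4.75 ± 1.59 (unadjusted p = 0.0118, edgeR adjusted p = 0.737). Solyc07g064020.2, closest to AT5G54660, was at 21.8 against 20.7 CPM in AC and 102 against 20.2 CPM in HG6-61 and fell in the HG6-61 alone class.

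The wider list of heat shock symbols holds larger chaperones and heat shock factors and shares 11 members with the small proteins. In it 27 of 68 judged members were at least 2-fold higher in AC and 15 of 65 in HG6-61, against 14.5% and 14% of all judged genes, and 8 and 15 were 2-fold lower, against 24% and 22.2%. The share lower in HG6-61 was near that of all genes, and the share lower in AC was below it. Of the members judged in AC, 2 reached 10 reads at 35 DAF alone and so had to be higher there. The median log2 change was 0.56 in AC and -0.25 in HG6-61. The plastid chaperone HSC70-7 (Solyc11g020040.1) was at 448 against 109.7 CPM in AC and 106 against 86.1 CPM in HG6-61 and was in the AC alone class. An HSP70 homologue (Solyc09g010630.2) was lower in each, at 1137 against 3224 CPM in AC and 1439 against 5060.1 CPM in HG6-61 (edgeR adjusted p = 0.0442), as was an HSP60-3A homologue (Solyc03g121640.2), at 42.2 against 78.7 CPM in AC and 33.1 against 77.3 CPM in HG6-61 (edgeR adjusted p = 0.0378). At an adjusted p under 0.05, 7 of 68 tested members were higher and 4 lower, against 3.27% and 4.77% of all tested genes.

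**Figure D2:**
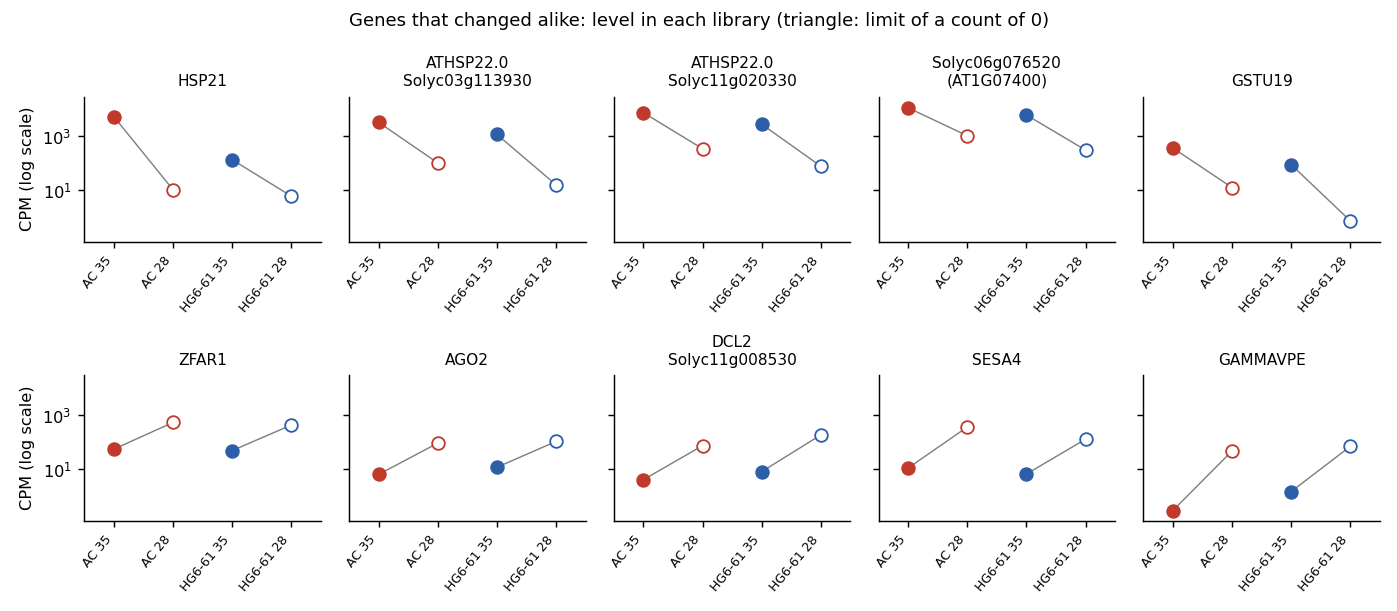
Level (CPM after TMM scaling, log scale) of 10 genes that changed alike, in each of the 4 libraries; filled points are 35 DAF, open points 28 DAF, red AC and blue HG6-61, with 1 library per point. In the upper row both 35 DAF libraries lie above their 28 DAF partner, and in the lower row both lie below; HSP21 stands at 5403 CPM in AC and 135 CPM in HG6-61 at 35 DAF.

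Homologues of genes of the plastid and mitochondrial genomes had higher summed levels at 35 DAF in each cultivar. Of the 344 loci whose closest Arabidopsis gene lies in an organelle genome, most had few reads, and 60 were judged in AC and 46 in HG6-61. Of these, 38 in AC and 24 in HG6-61 reached 10 reads at 35 DAF alone and so had to be higher there, which leaves the counts of higher members a description only: 49 were 2-fold higher in AC and 40 in HG6-61, where 14.5% and 14% of all judged genes were. With 30 reads required, 17 of 20 and 14 of 15 were. That limit can also be met at 35 DAF alone, so these counts are a description too. In the test, 15 of 61 were higher at an adjusted p under 0.05, but 7 without AC at 35 DAF, 1 without AC at 28 DAF, 5 without HG6-61 at 35 DAF and 0 without HG6-61 at 28 DAF. Their summed level was 3128 CPM at 35 DAF against 1788 CPM at 28 DAF in AC and 6699.8 against 1493 CPM in HG6-61, 0.258% to 0.637% of the counts at 35 DAF. The list was set after the values were seen, and whether these reads come from the nuclear loci or from organelle transcripts was not tested. Nuclear genes for ribosomal proteins had a median log2 change of 0.50 in AC and 0.50 in HG6-61, with 6 of 80 tested members higher and 1 lower at an adjusted p under 0.05, against 3.27% and 4.77% of all tested genes. With library totals these medians were 0.18 and 0.32. Of the judged ribosomal members, 10 in AC and 7 in HG6-61 reached 10 reads at 35 DAF alone and so had to be higher there. Photosystem and light-harvesting genes had medians of -0.40 and 0.02 (-0.72 and -0.16 with library totals), and 3 of 92 tested were higher and 1 lower, no more than the 3.27% and 4.77% of all tested genes.

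Regulators of ripening were higher at 35 DAF in each cultivar for RIN, FUL1 and NOR, at different levels. Of the 15 listed regulators, 9 were at least 2-fold higher in AC and 7 in HG6-61, against 14.5% and 14% of all judged genes, and 0 and 1 were 2-fold lower, with a median log2 change of 1.39 and 0.89. At an adjusted p under 0.05, 1 of 15 tested was higher and 1 was lower, against 3.27% and 4.77% of all tested genes. Neither call held without either AC library or without HG6-61 at 28 DAF. The MADS-box factor RIN (Solyc05g012020.2) was at 689 CPM at 35 DAF and 52.7 CPM at 28 DAF in AC, and 8.63 and 1.19 CPM at the same stages in HG6-61. The HG6-61 values rest on 12 and 5 reads, and the log2 change there was 2.86 (counting interval 1.25 to 4.72), against 3.71 (counting interval 3.51 to 3.91) in AC. FUL1 (Solyc06g069430.2), a partner of RIN, was at 427 CPM at 35 DAF and 42.1 CPM at 28 DAF in AC, and 111 and 31.1 CPM at the same stages in HG6-61, a log2 change of 2.90 ± 0.61 over both (edgeR adjusted p = 0.0248). FUL1 was the regulator that was higher in the test, with a change of 1.47 without AC at 35 DAF (edgeR adjusted p = 0.12). The NAC factor NOR (Solyc10g006880.2) was at 212 against 77.3 CPM in AC and 66.2 against 7.83 CPM in HG6-61, a larger ratio in HG6-61 with a difference of -1.61 ± 0.86 (unadjusted p = 0.0882, edgeR adjusted p = 0.955). The LBD1 homologue Solyc11g072470.1 was at 93.5 against 32.4 CPM in AC and 45.3 against 2.37 CPM in HG6-61. AP2a (Solyc03g044300.2), which holds back ripening in tomato, was at 353 against 47.8 CPM in AC and 63.3 against 27.8 CPM in HG6-61. CNR (Solyc02g077920.2), an SBP-box factor needed for ripening, was the listed regulator in the AC alone class: it was at 236 against 55.4 CPM in AC and 55.4 against 50.3 CPM in HG6-61, and its difference was 1.96 ± 0.61 (unadjusted p = 0.00839, edgeR adjusted p = 0.695).

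Ethylene synthesis genes showed shared, AC alone and opposite changes. ACS2 (Solyc01g095080.2), the main ACC synthase of ripening fruit, had 5748 against 22 reads in AC and 33 against 1 reads in HG6-61, a log2 change of 8.33 (counting interval 7.73 to 9.01) and 6.64 (counting interval 4.07 to 11.99). Over both it was 7.82 ± 1.44 (edgeR adjusted p = 0.0203), but its level at 35 DAF was 1629 CPM in AC and 23.7 CPM in HG6-61. Without AC at 35 DAF the ACS2 change was 4.08 (edgeR adjusted p = 0.0598), and without AC at 28 DAF it was 9.79 (edgeR adjusted p = 0.0804). ACS4 (Solyc05g050010.2) had 237 against 5 reads in AC and 1 against 0 reads in HG6-61, and was in the AC alone class with too few reads in HG6-61 for a ratio. ACS6 (Solyc08g008100.2), an ACC synthase of unripe fruit, was at 21.3 against 127 CPM in AC and 173 against 83.7 CPM in HG6-61, with a difference of -3.61 ± 1.25 (unadjusted p = 0.0144, edgeR adjusted p = 0.737). ACO1 (Solyc07g049530.2) was at 628 against 1307 CPM in AC and 600.4 against 205 CPM in HG6-61. These 2 genes were lower in AC and higher in HG6-61. Over the 11 listed genes the median log2 change was -0.11 in AC and 0.52 in HG6-61, and 1 of 10 tested passed an adjusted p of 0.05. Among 16 receptor and signalling genes, 5 were 2-fold higher in AC and 1 in HG6-61, against 14.5% and 14% of all judged genes. In each cultivar 1 was 2-fold lower (4 in AC and 3 in HG6-61 with library totals), against 24% and 22.2% of all judged genes. In the test, 0 of 15 passed in edgeR, and DESeq2 called 0 higher and 1 lower. At an unadjusted p under 0.05 were 4 of the 15, near the share of all tested genes (5021 of 18082). The ERS1 receptor homologue Solyc09g075440.2 was at 515 against 159 CPM in AC and 45.3 against 80.2 CPM in HG6-61, with a difference of 2.52 ± 0.85 (unadjusted p = 0.012, edgeR adjusted p = 0.737). E4 (Solyc03g111720.2), an ethylene-induced methionine sulphoxide reductase homologue, was at 2395 against 60.3 CPM in AC and 22.3 against 9.01 CPM in HG6-61, a difference of 4.02 ± 0.93 (unadjusted p = 0.00115, edgeR adjusted p = 0.418).

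Further ripening genes were higher in each cultivar. The mannanase gene MAN4 (Solyc01g008710.2) had 2945 against 3 reads in AC and 49 against 0 reads in HG6-61, a log2 change of 10.24 (counting interval 8.69 to 12.52) in AC and at least 49.5-fold higher in HG6-61 when its count of 0 is set to 3 reads. STAY-GREEN 1 (SGR1, Solyc08g080090.2), which removes the magnesium of chlorophyll, was at 259 CPM at 35 DAF and 26.9 CPM at 28 DAF in AC, and 145 and 16.6 CPM at the same stages in HG6-61, a log2 change of 3.21 ± 0.77 (edgeR adjusted p = 0.0338). The SGR1 ratios differed by 0.14 ± 1.38. The carotenoid isomerase ZISO (Solyc12g098710.1) was at 960.2 against 48.3 CPM in AC and 82 against 16.4 CPM in HG6-61 (edgeR adjusted p = 0.0273). A GSTU19 homologue (Solyc12g011310.1) had 1304 against 54 reads in AC and 123 against 3 reads in HG6-61, a log2 change of 5.49 ± 0.88 (edgeR adjusted p = 0.0161). Without AC at 35 DAF the log2 change of ZISO was 1.56 (edgeR adjusted p = 0.187) and that of MAN4 5.33 (edgeR adjusted p = 0.107). An ascorbate peroxidase (APX-3 in the study's table, Solyc09g007270.2), an enzyme that reduces hydrogen peroxide with ascorbate, was at 828 against 308 CPM in AC and 931 against 154 CPM in HG6-61 (edgeR adjusted p = 0.0206). In the 45 ascorbate genes as a whole, 3 of 44 tested were higher and 2 lower at an adjusted p under 0.05, close to the 3.27% and 4.77% of all tested genes, and the median log2 change was -0.01 in AC and -0.23 in HG6-61.

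Genes that were lower alike included seed, cell wall and sugar genes. Of the 16 seed genes, 4 were lower alike, where 6.72% of all genes judged in both cultivars were. At least 2-fold, 2 of 13 judged were higher and 7 lower in AC, and 2 of 12 higher and 5 lower in HG6-61. Of all judged genes, 14.5% were higher and 24% lower in AC, and 14% and 22.2% in HG6-61. Against 4.77% of all tested genes, 1 of 12 tested seed genes was lower at an adjusted p under 0.05 in edgeR. This was SESA4 (Solyc07g064210.2), a 2S seed storage albumin, at 10.8 CPM at 35 DAF and 362 CPM at 28 DAF in AC, and 6.47 and 128 CPM at the same stages in HG6-61 (edgeR adjusted p = 0.0147). A CRU1 homologue (Solyc03g005580.2), a cruciferin storage globulin in Arabidopsis, was at 402 against 4967 CPM in AC and 774 against 4155 CPM in HG6-61 (edgeR adjusted p = 0.111). The vacuolar processing enzyme GAMMAVPE (Solyc08g065790.2) had 1 against 202 reads in AC and 2 against 292 reads in HG6-61, a log2 change of -7.36 (counting interval -12.67 to -4.86) and -5.59 (counting interval -8.64 to -3.72) (edgeR adjusted p = 0.0147). A gene with many reads at 28 DAF was Solyc06g048440.2, closest to AT5G06640, with 56 against 7086 reads in AC and 42 against 4571 reads in HG6-61 (edgeR adjusted p = 0.0244). Of the wall genes, the pectin methylesterase PMEU1 (Solyc03g123630.2) was at 43.4 against 382 CPM in AC and 151 against 974 CPM in HG6-61 (edgeR adjusted p = 0.0298) and the xyloglucan endotransglucosylase XTH5 (Solyc01g099630.2) at 2.27 against 17.5 CPM in AC and 32.4 against 116 CPM in HG6-61 (edgeR adjusted p = 0.113). Sucrose synthase SUS1 (Solyc12g009300.1) was at 76.8 against 216 CPM in AC and 75.5 against 541 CPM in HG6-61 (edgeR adjusted p = 0.0427). Genes of steroidal glycoalkaloid synthesis (GAME), which makes the bitter compounds of green fruit, were lower in level too. Of the judged members, 6 of 8 were at least 2-fold lower in AC and 5 of 8 in HG6-61, against 24% and 22.2% of all judged genes. The medians were -1.50 and -1.15. In edgeR 0 of 9 passed, and DESeq2 called 2 lower. At an unadjusted p under 0.05 were 6 of the 9, where 5021 of all 18082 tested genes were. The listed GAME genes had between 0 and 3254 reads.

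**Figure D3:**
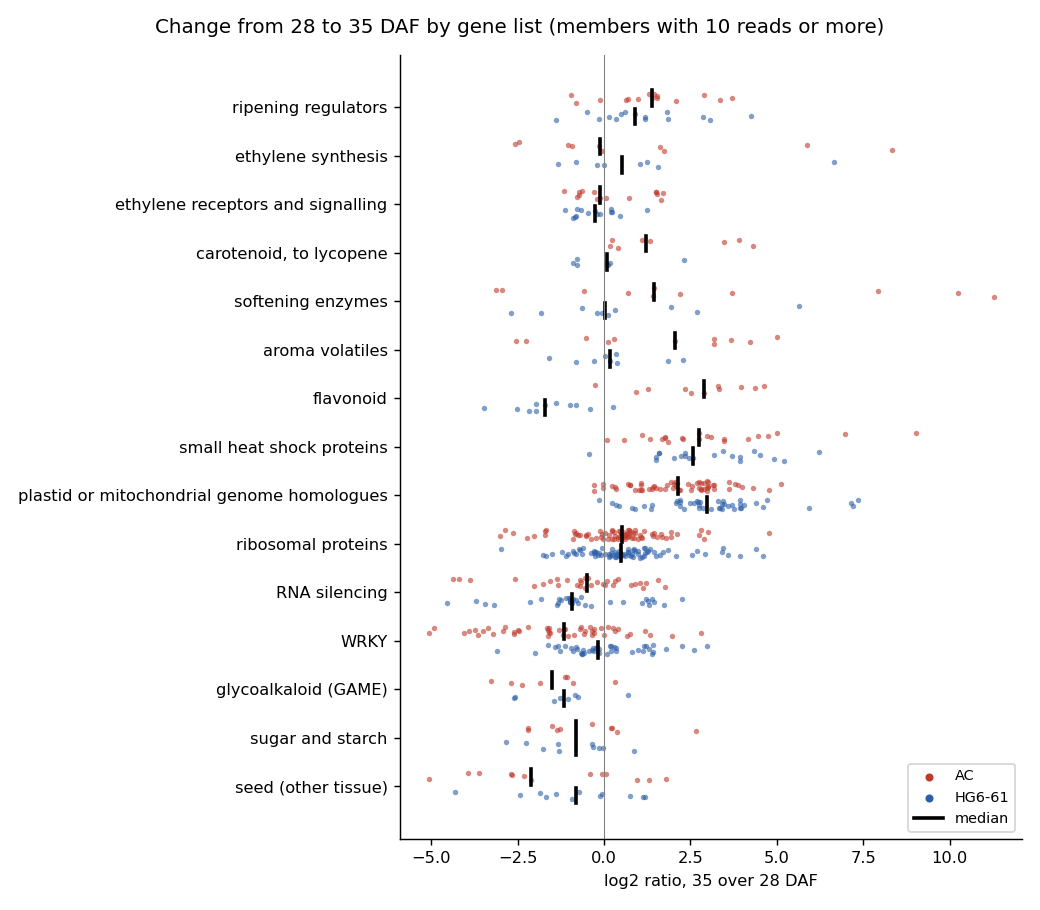
Log2 ratio of 35 over 28 DAF for the judged members of 15 gene lists, AC above HG6-61 in each row, with 1 point per gene and a bar at the median; a count of 0 stands at 3 reads. Small heat shock proteins lie at medians of 2.75 and 2.57, and the flavonoid genes lie on opposite sides of 0 at 2.90 in AC and -1.70 in HG6-61.

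In AC alone, the 302 genes with higher levels had medians of 13.9 CPM at 35 DAF and 1.15 CPM at 28 DAF in AC, and of 2.16 and 0.712 CPM in HG6-61. In 167 of them HG6-61 had 3 reads or fewer in each library, so that for these genes the class says only that they were not detectable at this depth. Of the other 135, the counting interval of the HG6-61 ratio lay wholly within 2-fold for 31. Of the 273 genes of this class in the test of the difference, 62 had an unadjusted p under 0.05 (2.19% of all tested genes had one in that direction) and 1 passed after adjustment. The class was set by the same values, so this share is no support for it.

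The gene of the AC alone class that passed was Solyc01g088400.2 on chromosome 1, closest to CER1, which makes the alkanes of cuticular wax in Arabidopsis. It had 3116 against 7 reads in AC and 6 against 22 reads in HG6-61, which is 883 against 1.61 CPM in AC and 4.31 against 5.22 CPM in HG6-61. The difference in log2 change was 9.34 ± 1.14 (unadjusted p = 4.34e-06, edgeR adjusted p = 0.0461). The other gene that passed, Solyc02g069420.2 on chromosome 2, closest to AT1G72700, was outside the class since it was lower in HG6-61: it had 154 against 34 reads in AC and 0 against 60 reads in HG6-61, with a log2 change of 2.48 (counting interval 1.94 to 3.06) in AC and at least 6.6-fold lower in HG6-61 with 3 reads in place of 0. The difference, which depends on how a count of 0 is fitted, was 10.98 ± 1.36 (unadjusted p = 4.80e-06, edgeR adjusted p = 0.0461). Other large rises of this class were chosen after their values were seen. Solyc08g066240.2 on chromosome 8 had 3282 against 2 reads in AC and 3 against 2 reads in HG6-61, and carries the same Arabidopsis symbol, emb1075, as the tomato aromatic decarboxylase AADC1A. The AC log2 ratio of Solyc08g066240.2 was 10.98 (counting interval 9.13 to 14.03). A methylesterase homologue (MES1, Solyc02g065260.2) had 737 against 0 reads in AC and 0 against 0 reads in HG6-61, at least 303-fold higher in AC. The emb1075 and MES1 homologues also passed over both cultivars (edgeR adjusted p = 0.0346 and edgeR adjusted p = 0.0354), but without AC at 35 DAF their changes were 1.73 and -0.23 (edgeR adjusted p = 0.492 and 1).

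Among softening genes, CEL2 (Solyc09g010210.2), an endoglucanase, was at 1638 CPM at 35 DAF and 6.67 CPM at 28 DAF in AC, and 4.31 and 4.98 CPM at the same stages in HG6-61. The log2 change was 7.94 (counting interval 7.42 to 8.52) in AC and -0.21 (counting interval -1.81 to 1.15) in HG6-61, a difference of 8.14 ± 1.10 (unadjusted p = 1.15e-05, edgeR adjusted p = 0.0736). The polygalacturonase PG2A (Solyc10g080210.1), which depolymerises pectin in ripe fruit, had 6103 against 0 reads in AC and 5 against 2 reads in HG6-61. It was at least 2506-fold higher at 35 DAF in AC, and the HG6-61 log2 ratio was 2.92 (counting interval 0.31 to 6.31), with too few reads to enter a class. The expansin EXP1 (Solyc06g051800.2) was at 1705 against 130.2 CPM in AC and 10.8 against 1.66 CPM in HG6-61, and the pectate lyase PL (Solyc03g111690.2) at 3020.3 against 659 CPM in AC and 65.4 against 17.1 CPM in HG6-61; by ratio both were higher alike, but the HG6-61 level of each at 35 DAF was below its AC level at 28 DAF. Of the 11 listed genes 7 were 2-fold higher in AC and 3 of 10 judged in HG6-61, against 14.5% and 14% of all judged genes. In each cultivar 2 members reached 10 reads at 35 DAF alone and so had to be higher there. The counts of higher members are therefore a description only. A further 2 in AC and 2 in HG6-61 were 2-fold lower, near the 24% and 22.2% of all judged genes. The median log2 changes were 1.44 and 0.03 (1.12 and -0.15 with library totals).

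For carotenoids, phytoene synthase PSY1 (Solyc03g031860.2), the first step towards lycopene, was at 7621 CPM at 35 DAF and 688 CPM at 28 DAF in AC, and 96.3 and 89.4 CPM at the same stages in HG6-61. The AC ratio was 3.47 (counting interval 3.42 to 3.52) and the HG6-61 ratio 0.11 (counting interval -0.19 to 0.40), a difference of 3.37 ± 0.81 (unadjusted p = 0.00145, edgeR adjusted p = 0.424). PSY1 in AC at 28 DAF was already above both HG6-61 libraries. Over the 8 listed genes up to lycopene, 5 were 2-fold higher in AC and 1 of 7 judged in HG6-61, against 14.5% and 14% of all judged genes, and 0 was 2-fold lower in either. With library totals 3 were 2-fold higher in AC and 1 in HG6-61. The median log2 changes were 1.21 in AC and 0.10 in HG6-61 (0.89 and -0.08 with library totals). Of the genes past lycopene, 1 of 5 judged was 2-fold higher in AC and 0 of 6 in HG6-61, against 14.5% and 14% of all judged genes. In these, 1 and 2 were 2-fold lower, against 24% and 22.2%. Among aroma genes, the lipoxygenase LOXC (Solyc01g006540.2), which supplies fatty acid volatiles, had 2522 against 167 reads in AC and 3 against 1 reads in HG6-61. LOXB (Solyc01g099190.2) was at 12066 against 1323 CPM in AC and 483 against 373 CPM in HG6-61, and alcohol dehydrogenase ADH2 (Solyc06g059740.2) at 6518 against 1587 CPM in AC and 964 against 862 CPM in HG6-61, a difference of 1.88 ± 0.71 (unadjusted p = 0.022, edgeR adjusted p = 0.805). Of the 12 aroma genes, 4 were higher in AC alone and 2 lower in AC alone, where 1.87% and 3.8% of all judged genes were. LOXC counts among the 4 for lack of reads in HG6-61, where the counting interval of its log2 ratio was -0.45 to 8.90. LOXD (Solyc03g122340.2), among the 2 lower, was at 72.5 against 428 CPM in AC and 234 against 408 CPM in HG6-61. In the stage test 0 of 11 aroma genes passed after adjustment in edgeR, and 1 was higher in DESeq2. The vacuolar invertase TIV1 (Solyc03g083910.2), which splits sucrose in ripe fruit, was at 10249.9 against 1621 CPM in AC and 498 against 272 CPM in HG6-61.

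Most flavonoid genes were higher at 35 DAF in AC and lower in HG6-61. Of the 11 listed genes, 9 were 2-fold higher in AC and 0 were 2-fold lower, while 0 were 2-fold higher and 7 lower in HG6-61, where 14.5% and 14% of all judged genes were higher and 24% and 22.2% lower in AC and HG6-61. The median log2 change was 2.90 and -1.70. In the test of the difference 9 of 11 had an unadjusted p under 0.05, all with AC above, against 2.19% of all tested genes, and 0 passed after adjustment in edgeR, against 3 in DESeq2. Flavanone 3-hydroxylase F3H (Solyc02g083860.2) was at 221 CPM at 35 DAF and 21.9 CPM at 28 DAF in AC, and 8.63 and 22.5 CPM at the same stages in HG6-61. The log2 change was 3.34 (counting interval 3.03 to 3.66) in AC and -1.38 (counting interval -2.39 to -0.51) in HG6-61, a difference of 4.72 ± 0.70 (unadjusted p = 2.84e-05, edgeR adjusted p = 0.0799). Chalcone synthase CHS2 (Solyc05g053550.2), the first step of the pathway, was at 199 against 9.66 CPM in AC and 4.31 against 14 CPM in HG6-61, and CHI-like of the study's table (Solyc05g052240.2) at 177 against 11.3 CPM in AC and 2.16 against 9.72 CPM in HG6-61 (unadjusted p = 0.00015, edgeR adjusted p = 0.192). The flavonol synthase FLS (Solyc11g013110.1) was at 453 against 88.8 CPM in AC and 12.9 against 74.9 CPM in HG6-61. MYB12 (Solyc01g079620.2), an activator of these genes, had 104 against 13 reads in AC and 6 against 32 reads in HG6-61 and was in the AC alone class. At 28 DAF the cultivars were close for F3H, CHI-like and FLS, and they parted at 35 DAF. The HG6-61 values of the 3 genes at 35 DAF rest on 3 to 18 reads.

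The 615 genes lower in AC alone had medians of 1.42 CPM at 35 DAF and 11.7 CPM at 28 DAF in AC, and 7.91 and 8.78 CPM in HG6-61. Of these, 536 had a measured HG6-61 ratio and for 114 its counting interval lay within 2-fold. None passed the test of the difference in edgeR after adjustment, and 200 of 595 tested had an unadjusted p under 0.05 (3.24% of all tested genes had one with the AC change below). The same values set this class, as they did for the rises, so this share is no support for it. The genes with the largest falls, chosen after their values were seen, included the calmodulin-like CML41 (Solyc03g044900.2), a calcium sensor of plant defence in Arabidopsis. CML41 had 2 against 406 reads in AC and 17 against 72 reads in HG6-61, a log2 change of -7.36 (counting interval -10.42 to -5.50) and -0.48 (counting interval -1.34 to 0.30) and a difference of -6.78 ± 1.56 (unadjusted p = 0.00107, edgeR adjusted p = 0.418). The lectin receptor kinase LECRKA4.3 (Solyc09g005000.1) had 1 against 88 reads in AC and 11 against 38 reads in HG6-61, and a GSTU8 homologue (Solyc01g086680.2) 2 against 134 reads in AC and 13 against 22 reads in HG6-61.

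WRKY factors, which in plants act mostly in defence and senescence, were taken as a further list after the values were seen. In all, 27 of 49 judged members were at least 2-fold lower in AC and 7 of 44 in HG6-61, against 24% and 22.2% of all judged genes, while 4 in AC and 11 in HG6-61 were 2-fold higher, against 14.5% and 14%. The medians were -1.16 and -0.18. A WRKY51 homologue (Solyc04g072070.2) was at 1.98 CPM at 35 DAF and 60.5 CPM at 28 DAF in AC, and 18.7 and 29.2 CPM at the same stages in HG6-61, a difference of -4.26 ± 1.60 (unadjusted p = 0.022, edgeR adjusted p = 0.805). WRKY70 (Solyc03g095770.2) was at 58.4 against 332 CPM in AC and 174 against 298 CPM in HG6-61, and a WRKY40 homologue (Solyc08g067340.2) was lower alike at 14.5 against 239.7 CPM in AC and 88.4 against 225 CPM in HG6-61. Members higher in HG6-61 included a WRKY71 homologue (Solyc02g071130.2), higher alike at 6.23 against 2.76 CPM in AC and 33.8 against 4.27 CPM in HG6-61, and another WRKY40 homologue (Solyc03g116890.2), at 113 against 137 CPM in AC and 338 against 154 CPM in HG6-61. At an adjusted p under 0.05, 2 of 49 tested WRKY genes were lower over both cultivars, a share near the 4.77% of all tested genes. Between the cultivars 0 of 54 differed in edgeR and 0 in DESeq2. At an unadjusted p under 0.05 in edgeR were 7 of the 54, where 1043 of all 19182 tested genes were. Glutamate decarboxylases, which make GABA, were divided: GAD2 (Solyc11g011920.1) was at 42.2 against 326 CPM in AC and 232 against 402 CPM in HG6-61 and GAD3 (Solyc01g005000.2) at 2.27 against 24.4 CPM in AC and 43.9 against 71.4 CPM in HG6-61, while GAD1 (Solyc03g098240.2) was at 636 against 584 CPM in AC and 736 against 162 CPM in HG6-61. By class, GAD2 and GAD3 were thus lower in AC alone and GAD1 higher in HG6-61 alone. GAD2 and GAD3 were also lower in HG6-61, by less than 2-fold. The abscisic acid gene NCED1 (Solyc07g056570.1) was at 161 against 245 CPM in AC and 316 against 119 CPM in HG6-61, lower in AC and higher in HG6-61 (unadjusted p = 0.075, edgeR adjusted p = 0.945).

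**Figure D4:**
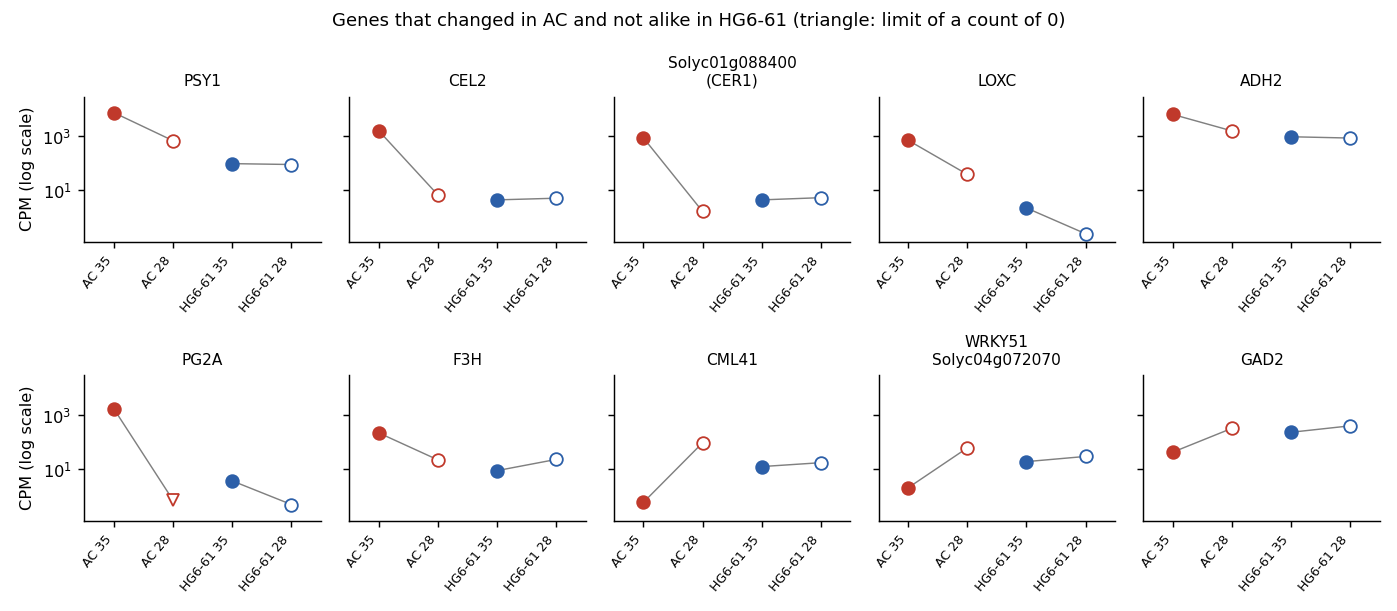
Level (CPM after TMM scaling, log scale) in each of the 4 libraries of 10 genes that changed in AC and were not classed as changed alike. Filled points are 35 DAF, open points 28 DAF, red AC and blue HG6-61, and a triangle is the limit of 3 reads for a count of 0. For PG2A and LOXC, HG6-61 had too few reads to tell whether the change was alike. PSY1 stands at 7621 and 688 CPM in AC and at 96.3 and 89.4 CPM in HG6-61.

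The later libraries place these values. For the 302 genes higher in AC alone, the median level in HG6-61 was 0.712 CPM at 28 DAF, 2.16 CPM at 35 DAF, 6.46 CPM in the 42 DAF library and 5.97 CPM in the 49 DAF library. PSY1 reached 4043 CPM in HG6-61 at 42 DAF, CEL2 510.1 CPM, LOXB 13730.3 CPM and PG2A 1572 CPM. These genes were therefore high in HG6-61 in the library 7 days later. Small heat shock proteins summed to 32681 CPM at 42 DAF and 15062 CPM at 49 DAF in AC, and to 27436 and 1921 CPM in HG6-61. The DCL2 homologue Solyc11g008530.1 was at 2.42 and 5.96 CPM at 42 DAF in AC and HG6-61, and at 15.1 and 49.3 CPM at 49 DAF. ZFAR1 was at 701 CPM in AC and 509 CPM in HG6-61 at 42 DAF, so its low level at 35 DAF was not seen 7 days later. These are single libraries and were not tested.

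**Figure D5:**
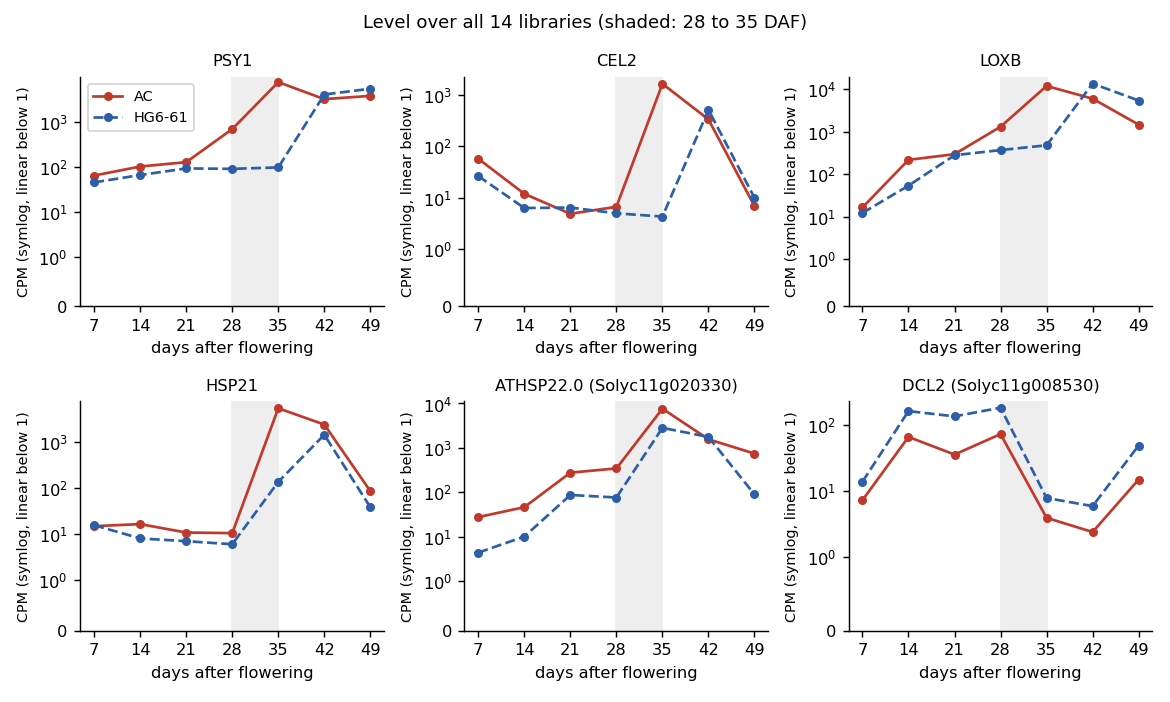
Level (CPM after TMM scaling, symmetric log axis, linear below 1) of 6 genes at the 7 stages in AC (red, solid) and HG6-61 (blue, dashed), 1 library per point, with the interval from 28 to 35 DAF shaded. PSY1, CEL2 and LOXB are high in AC at 35 DAF and in HG6-61 at 42 DAF, while ATHSP22.0 is high and DCL2 low in each cultivar at 35 DAF.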

How the data were processed

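RNA-seq was done once for each of 7 stages in AC and HG6-61. The deposited counts are whole numbers of reads per gene: the authors filtered the reads, aligned them with TopHat to the SL2.40 genome, removed reads with several alignments and counted the rest per gene. The authors also deposited RPKM values, used here as an alternative, and the table lists each gene's length. Strand was not given in the sources used here, so a gene and an overlapping antisense gene cannot be told apart.

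A gene was judged in a cultivar if either of its 2 libraries held 10 reads or more. By this rule 611 of all genes in AC and 201 in HG6-61 were judged through 35 DAF alone. Such genes had to be higher there. CPM used TMM factors over the 14 libraries, and intervals of a ratio came from an exact binomial interval (Clopper-Pearson, 95%) on the 2 counts, which covers counting error only. A count of 0 was set to 3 reads and gives a bound. The stage test was edgeR's quasi-likelihood test (glmQLFit, glmQLFTest, filterByExpr) with stage and cultivar over all 14 libraries, with Benjamini-Hochberg adjustment, and the SE is the log2 change over the square root of F. Cultivar is the block that pairs the libraries, as the study took the cultivars as its replicates. The difference test let each cultivar have its own change between 28 and 35 DAF, with the spread from the other 5 stages. Limits were an adjusted p of 0.01 and a 4-fold change for the stage and an adjusted p of 0.05 for the difference. Tests ran in R 4.3.3 with edgeR 4.0.16, limma 3.58.1 and DESeq2 1.42.0, intervals in scipy 1.17.1, and tables and plots in pandas 2.3.3 and matplotlib 3.10.9 under Python 3.11.15.

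The comparison, the gene lists and the limits were chosen with earlier results of these data known. Listed genes could be named, and beyond them the 8 largest rises and falls over both cultivars among called genes that moved beyond 2-fold in each, and the 8 largest in AC among genes of the AC alone class called for the difference, with a mean of at least 10 reads. Any other gene named was chosen after its values were seen. Of 181 listed names, 122 were found in RefSeq on the same chromosome. Genes that matched the seed list by symbol only, CRCK2, CRCK3 and ATS1, were removed from it. A listed gene is not named here. Alternatives were library totals and relative log scaling in place of TMM, other filters and fold limits, thinning to 1461817 reads, RPKM ratios, DESeq2, fits of fewer libraries, and, chosen after seeing the data, changes relative to genes of like length.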

Additional observations from a re-analysis of the deposited data

Results flagged for a closer look

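In 2 genes the change between 28 and 35 DAF differed between the cultivars by the test of the difference. Solyc01g088400.2, the CER1 homologue, had a difference of 9.34 ± 1.14 on the log2 scale (AC minus HG6-61; unadjusted p = 4.34e-06, edgeR adjusted p = 0.0461), from 3116 against 7 reads in AC and 6 against 22 reads in HG6-61. It was at 1692 CPM at 42 DAF and 829 CPM at 49 DAF in HG6-61. Solyc02g069420.2, the homologue of AT1G72700, had a difference of 10.98 ± 1.36 (unadjusted p = 4.80e-06, edgeR adjusted p = 0.0461), from 154 against 34 reads in AC and 0 against 60 reads in HG6-61. Its estimate rests on the count of 0 in the shallowest library. Neither passed with library totals in place of TMM, or at an adjusted p of 0.01.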

How the results depend on the processing

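Over both cultivars, the counts of genes higher and lower (0 and 4) were 7 and 70 with library totals, 73 and 88 without a filter, 180 and 260 with DESeq2, and 591 and 863 at an adjusted p of 0.05 with no fold limit. Leaving out 1 library gave 0 to 67 higher and 1 to 27 lower. The 4 libraries alone gave 0 and 0, and without the cultivar block that pairs the libraries no gene was lower (0) or higher (0). The difference between the cultivars (2 with AC above, 0 below) became 0 and 0 with library totals or at an adjusted p of 0.01, 15 and 16 without a filter, 19 and 21 with DESeq2, and 75 and 125 with the spread from 7, 14 and 21 DAF. With 2-fold and 1.5-fold limits, 1709 genes were higher and 2903 lower alike, 748 higher and 1121 lower in AC alone, and 674 and 922 in HG6-61 alone. With 30 reads required these were 217, 684, 140, 343, 98 and 167. Genes higher alike numbered 246 with library totals and 206 with RPKM ratios, and genes higher in AC alone 181 with RPKM ratios. Without AC at 35 DAF the change over both cultivars turned sign for Solyc01g088400.2, Solyc02g065260.2 and CEL2; with 1 library left out their log2 values lay between -0.060 and 8.87, -0.23 and 12.74, and -0.24 and 8.05, each highest without HG6-61 at 35 DAF. Of 25 genes past an adjusted p of 0.05 over both cultivars that were followed under each alternative, most of them named above, 17 lost the call without AC at 35 DAF, those 3 included, 16 without AC at 28 DAF, 3 without HG6-61 at 35 DAF and 20 without HG6-61 at 28 DAF, against 1 with DESeq2 and 0 with library totals or without a filter. The cause of these shifts was not tested. The limit of what can be seen is set by the HG6-61 library at 35 DAF and by the lack of replicates.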

Other observations

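Genes that passed 4-fold in HG6-61 alone included Solyc03g120420.2 and Solyc03g116510.1, which carry no Arabidopsis match in the files. Solyc03g120420.2 had 182 against 197 reads in AC and 159 against 15 reads in HG6-61, a difference of -4.80 ± 1.20 (unadjusted p = 0.00197, edgeR adjusted p = 0.467). Solyc03g116510.1 had 318 against 246 reads in AC and 102 against 15 reads in HG6-61, a difference of -3.67 ± 0.90 (unadjusted p = 0.00165, edgeR adjusted p = 0.439). Among falls in HG6-61 alone, the HSP98.7 homologue Solyc06g011380.2 had 55 against 83 reads in AC and 7 against 177 reads in HG6-61. The abscisic acid 8'-hydroxylase CYP707A2 (Solyc08g005610.2), which degrades abscisic acid, had 1456 against 807 reads in AC and 23 against 159 reads in HG6-61, and NCED2 (Solyc08g016720.1), a gene of its synthesis, 6 against 27 reads in AC and 59 against 75 reads in HG6-61. CYP707A2 was thus higher in AC and lower in HG6-61, while NCED2 went the other way, with a difference of -3.09 ± 0.91 (unadjusted p = 0.00586, edgeR adjusted p = 0.621). ASR1 (Solyc04g071610.2), a small protein of ripening and drought, had 149690 against 98059 reads in AC and 67337 against 66329 reads in HG6-61, 42412 against 22555 CPM in AC and 48417 against 15732 CPM in HG6-61.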
